A study of Rattus norvegicus with 8 samples.

Results

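Piezo1, Piezo2, Kcnk2, Kcnk4, Kcnk10, Tmem63a, Tmem63b and Tmem63c encode ion channels that open, or are thought to open, when a membrane is stretched. These 8 genes were taken by symbol from the 30560 genes of a single-nucleus RNA sequencing data set of rat nodose ganglia, and all 8 were found. Members were chosen by name and not by a cutoff on a measured value, though with earlier results of these data known. Their transcripts, counted as unique molecular identifiers (UMIs, 1 per captured RNA molecule), were described across types of neurons, other cells and 12 pools of ganglia.

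All animals were Long Evans rats of 8 weeks that had undergone no experiment, 18 male and 18 female. The ganglia of the left or of the right side of 6 rats were combined into each pool, with 3 pools for each combination of sex and side. The 4 groups are written ML (male, left), MR (male, right), FL (female, left) and FR (female, right), each with pools 1 to 3. Since 3 pools of 6 make up the 18 rats of a sex, left and right pools of a sex draw on the same rats, and the labels do not say which pools share animals. No group was treated, so that side and sex are the only comparisons between pools. Nuclei were fixed, barcoded and divided into 8 sublibraries, each of which holds nuclei of all pools. A pool averages 6 rats, and p-values measure the spread between pools.

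PIEZO1 and PIEZO2 are very large proteins that assemble in threes into a cation channel, which opens when force flattens its curved blades. PIEZO2 serves touch and the sense of limb position, and in vagal neurons it takes part in sensing lung inflation, while PIEZO1 is best known for sensing blood flow in the vessel wall and acts together with PIEZO2 in the baroreflex. Kcnk2 (TREK-1), Kcnk4 (TRAAK) and Kcnk10 (TREK-2) encode potassium channels with a pair of pore domains per subunit that open on stretch and on warming and that hold a neuron nearer to rest. The TMEM63 proteins are relatives of the plant OSCA channels that respond to osmotic and mechanical force, and variants of TMEM63A are known from disorders of myelin. The nodose ganglion holds the cell bodies of vagal neurons that innervate the internal organs, and the jugular ganglion, which is fused to it in rodents, holds somatosensory ones.

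Promoter sequences are shown for the 3 genes whose levels set the clearest contrasts below: Piezo2, which was concentrated in few neuron types, Tmem63c, which was spread over nearly all of them, and Tmem63a, which was higher in glia than in neurons. The RefSeq table of build GRCr8 gives 300 bases for each start, from 250 before it to 50 after it, and it matched 5 of the 8 genes with 6 promoters. Each is printed 5′ to 3′ on the strand of the gene. Capitals mark matches on either strand to GGGCGG (a GC box, which reads CCGCCC on the other strand) and CAGCTG (an E-box, the same on both strands), and overlapping matches run together.
Piezo2: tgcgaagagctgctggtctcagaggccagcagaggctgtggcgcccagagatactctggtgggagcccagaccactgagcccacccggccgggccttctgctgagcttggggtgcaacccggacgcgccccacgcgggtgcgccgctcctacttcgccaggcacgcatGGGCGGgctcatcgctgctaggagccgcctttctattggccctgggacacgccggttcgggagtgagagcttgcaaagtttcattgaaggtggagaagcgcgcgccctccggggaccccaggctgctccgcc
Tmem63a: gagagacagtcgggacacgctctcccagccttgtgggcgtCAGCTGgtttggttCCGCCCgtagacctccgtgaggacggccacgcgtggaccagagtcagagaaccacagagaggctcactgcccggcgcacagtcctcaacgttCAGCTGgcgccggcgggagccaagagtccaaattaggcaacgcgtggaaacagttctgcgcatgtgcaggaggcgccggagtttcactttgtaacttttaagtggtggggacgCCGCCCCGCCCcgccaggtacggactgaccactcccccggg
Tmem63c: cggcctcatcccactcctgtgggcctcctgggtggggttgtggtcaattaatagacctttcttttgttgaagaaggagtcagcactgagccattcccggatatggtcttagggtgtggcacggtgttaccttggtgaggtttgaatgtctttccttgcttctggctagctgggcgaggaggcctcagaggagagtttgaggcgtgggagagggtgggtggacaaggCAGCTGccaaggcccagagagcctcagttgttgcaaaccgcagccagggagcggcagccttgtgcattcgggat

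The Piezo2 promoter lies at chr18:59115166-59115465 on the minus strand and held 1 GC box and no E-box. The Tmem63a promoter, at chr13:95194960-95195259 on the plus strand, held 3 GC boxes and 2 E-boxes. The Tmem63c promoter, at chr6:112403643-112403942 on the plus strand, held no GC box and 1 E-box. None of the 3 held TATAAA, the TATA box. Of all 33469 promoters of this length, 33.1% held GGGCGG, 15.1% held CAGCTG and 14.2% held TATAAA. CpG, a C followed by a G on the same strand, is the site at which vertebrate DNA is methylated. It occurred 24 times in the Piezo2 promoter, 26 times in that of Tmem63a and 8 times in that of Tmem63c, against a median of 7 over all promoters. Among the 3, the broadly detected Tmem63c had the fewest CpG. The Kcnk4 promoter held 4 CpG, 1 GC box and 1 E-box, and both Kcnk2 promoters held 9 and 6 CpG and none of the 3 motifs. These matches describe the letters only, and neither binding nor methylation was measured.

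Of 36741 nuclei, 36738 were kept, with 1738 to 4849 nuclei and 7140286 to 19456287 UMIs per pool and a median of 2163 to 3626.5 UMIs per nucleus. Levels are given as CPM, in which the UMIs of a gene are scaled to a common total of UMIs in each pool and cell class, as mean ± SD over pools. CPM is not divided by gene length, so that levels of different genes are not compared. Clusters were built without the 8 genes and without the related genes listed below, and were named from marker genes. They gave 25299 neurons, of which 15703 were nodose-like, 2014 jugular-like and 7582 without a name, and 3716 satellite glia, 1407 myelinating Schwann cells and 791 endothelial cells. Set aside were 3493 nuclei of clusters that mixed markers or resembled sympathetic cells, and 1421 stayed unnamed. The fold that a neuron marker had to reach for a class was lowered after the clusters had been seen. The Y-linked genes summed to 2.88 CPM in the pool ML1, where the other male pools had at least 84.4 CPM. They summed to 88.6 CPM in the pool FL1, where no other female pool had more than 3.95 CPM. Both pools go against their sex label, the sexes are therefore called male-labelled and female-labelled, and results by sex are given with and without them. In addition, 1865 of 34798 barcode combinations occurred in more than 1 sublibrary. Across the 8 sublibraries, which should not differ in biology, Piezo2 in neurons ran from 282 to 345 CPM and Piezo1 from 16.0 to 21.1 CPM.

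Piezo2 was concentrated in a small part of the neurons. Over all neurons it stood at 306 ± 82.2 CPM (SD, n = 12 pools). Among 27 neuron subclusters of at least 50 nuclei it ran from 21.0 to 2414 CPM, and the 8 highest held 68.7% of its UMIs in 15.5% of the neurons. The highest was n31 (led by Poteg, Kcnj6 and Cdh9), with 2414 ± 230 CPM over the 7 pools that had at least 10 of its nuclei. It stood above n26 (Gabrg1, Syndig1, Cdh7), at 1973 ± 283 CPM, by more than the larger of both SDs. Next came n21 (Tafa1, Ntm, Ccdc172) at 1866 ± 303 CPM and n20 (Il31ra, Htr4, Hs6st2) at 1695 ± 255 CPM, which did not differ from their neighbours above beyond that spread.

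After a step beyond the spread, a second tier of Piezo2 held 6 subclusters. It began with n13 (led by Pcdh15, the cadherin of hair cell tip links, and Ndst4) at 1172 ± 134 CPM and n10 (Spon1, Tmem233, and Tacr1, the receptor of substance P) at 1151 ± 161 CPM. It went on with n30 (Spp1, Kcna1, and Nefh, a neurofilament of large fibres) at 976 ± 218 CPM and n17 (Eya4, Nxph1) at 973 ± 154 CPM. The tier ended with n14 (Rnf220, Nxph1, Kcnk2) at 901 ± 124 CPM and n8 (Adgrv1, Ranbp3l, Insrr) at 800 ± 120 CPM. No neighbours within the tier differed beyond their spread.

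Below it, n23 stood at 501 ± 129 CPM, n15 (Agtr1a, the angiotensin receptor, with Ntrk3 and Hmcn1) at 390 ± 46.2 CPM and n18 (Tac1, Chrm3, Calb2) at 189 ± 43.4 CPM. The remaining 14 subclusters, with 71.3% of the neurons, lay between 21.0 and 81.7 CPM and gave 6.66% of the Piezo2 UMIs. In all, 5 of the 26 steps between neighbours exceeded the spread: those below n31, n20, n8, n15 and n18.

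Piezo2-rich subclusters were found in all 3 kinds of neuron. Of the 4 jugular-like subclusters, n30, n8 and n18 lay in the upper 13, and n32 (Trpm8, the cold receptor, with Cdh8) stood at 78.5 CPM. Of the 12 nodose-like ones, n14 and n15 lay there, and the median of the 12 was 31.8 CPM. Among the 11 unnamed subclusters the median was 1151 CPM. The 6 highest levels of Piezo2 were all in unnamed subclusters, which carried too few of the nodose and jugular markers to be called either.

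**Figure D1:**
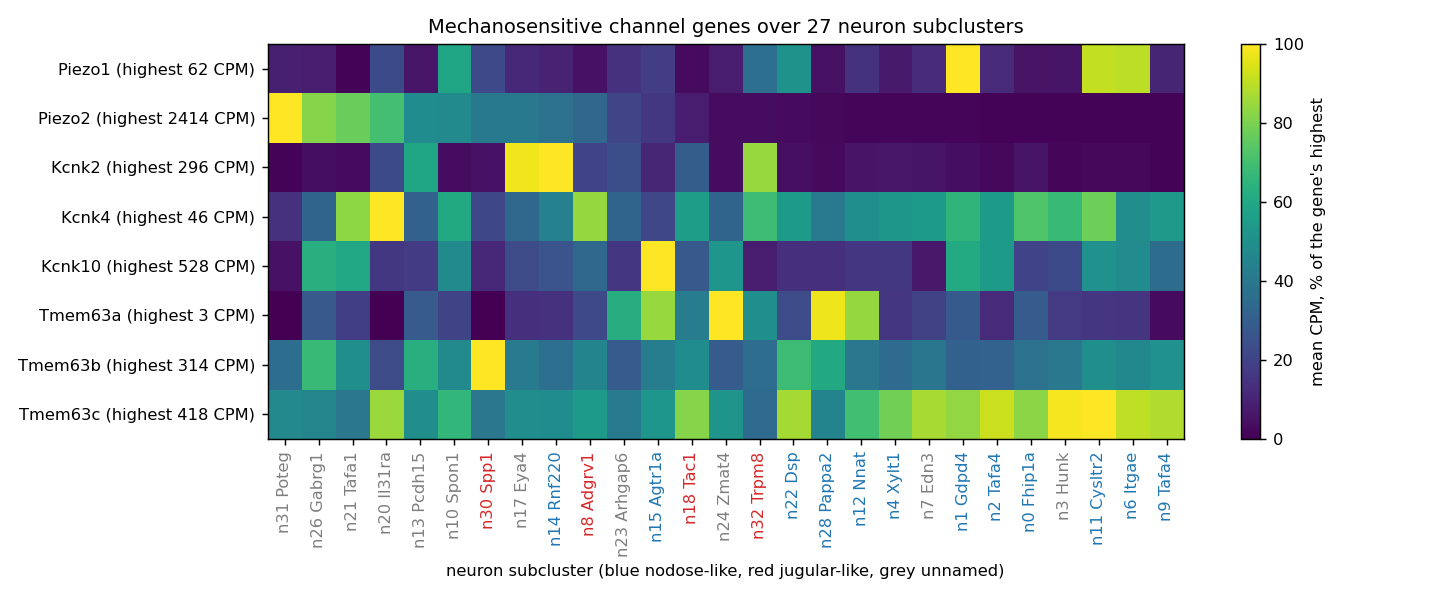
Heat map of the mean level of each gene (rows) in 27 neuron subclusters (columns, ordered by Piezo2), as a percentage of the gene's own highest CPM, which stands beside its name. Piezo2 and Kcnk2 are high in few columns, Piezo1 in 3 nodose-like columns at the low end of Piezo2, and Kcnk4, Tmem63b and Tmem63c in most columns.

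Piezo1 was concentrated in other neurons. It stood at 19.7 ± 3.74 CPM over all neurons, with a lowest pool of 13.2, a median of 18.5 and a highest pool of 26.3 CPM. The 3 highest subclusters were nodose-like: n1 (Gdpd4, Kcnh8, Itgae) at 62.02 ± 10.9 CPM, n11 (Cysltr2, Gdpd4, Ret) at 56.4 ± 17.6 CPM and n6 (Itgae, Gpr65, Cyp26b1) at 55.8 ± 14.4 CPM. They did not differ from each other beyond the spread, and together they held 71.6% of the Piezo1 UMIs in 18.4% of the neurons. Their lowest pools stood at 42.5, 35.7 and 38.5 CPM, so that Piezo1 was detected there in every pool.

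The step below n6, to n10 at 36.7 ± 14.2 CPM, was the only 1 of 26 beyond the spread. In n22 (Dsp, Stom, F2r) the mean of 31.9 CPM came with an SD of 46.3 over 11 pools, from 0 to 166 CPM, and no reading is made of it. The median subcluster stood at 7.25 CPM and the lowest, n21, at 0.627 CPM.

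The highest subclusters of both genes were different ones. In the Piezo1-rich n1, n11 and n6, Piezo2 stood at 30.3 ± 7.39, 22.3 ± 7.40 and 21.9 ± 6.32 CPM, near the bottom of its order. In the Piezo2-rich n31, n26 and n21, Piezo1 stood at 5.46 ± 9.90, 5.02 ± 4.303 and 0.627 ± 1.98 CPM. The exception was n10, the fourth for Piezo1 and the sixth for Piezo2. Across the 27 subclusters, which share libraries and depth, Pearson's r of log2(CPM + 5) between both genes was -0.30, a description without a test. In nuclei thinned to 1000 UMIs, 39 of 24314 neurons had a UMI of each gene. The product of the 2 shares within each subcluster, summed over subclusters, gives 42.5, a ratio of 0.918. At this depth 396 neurons had a Piezo1 UMI at all.

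**Figure D2:**
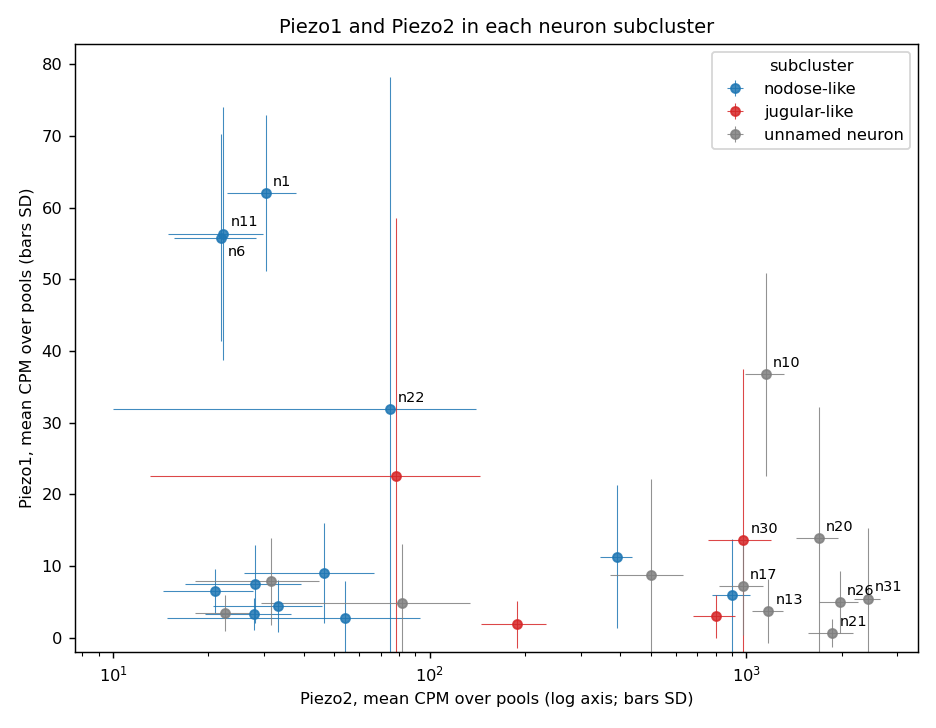
Mean CPM of Piezo1 (vertical) against Piezo2 (horizontal, log axis) in each of 27 neuron subclusters, with SD over pools as bars and colours for nodose-like, jugular-like and unnamed subclusters. The subclusters n1, n11 and n6 sit at 55.8 to 62.02 CPM of Piezo1 and 21.9 to 30.3 CPM of Piezo2, while n10 is raised on both axes.

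Of the stretch-opened potassium channels, Kcnk2 was the most restricted. Over all neurons it stood at 33.9 ± 5.94 CPM. Its highest subclusters were n14, with Kcnk2 among its own leading genes, at 296 ± 69.0 CPM, n17 at 290 ± 45.0 CPM and the Trpm8 subcluster n32 at 250 ± 56.2 CPM over 7 pools. Their lowest pools stood at 182, 224 and 171 CPM. After a step beyond the spread followed n13 at 175 ± 37.4 CPM, and after another n18 at 87.4 ± 26.2 CPM. The median subcluster stood at 14.1 CPM and the lowest, n9 (Tafa4, Itm2a, Sez6l), at 2.96 CPM.

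Kcnk2 overlapped with Piezo2 only in part. The subclusters n14, n17 and n13 were high for both, n32 had Kcnk2 with little Piezo2, and n31, the highest for Piezo2, had 3.42 ± 5.92 CPM of Kcnk2. Pearson's r over the 27 subclusters was 0.39.

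Kcnk10 had a single leading type. Over all neurons it stood at 193 ± 16.1 CPM. In n15, the Agtr1a and Ntrk3 subcluster, it stood at 528 ± 81.5 CPM, with every pool between 411 and 645 CPM. The next, n26, stood at 332 ± 74.7 CPM, a step beyond the spread, with n1 at 323 ± 47.0 CPM and n21 at 316 ± 86.3 CPM close by. The lowest were n7 (Edn3, Chrdl1) at 35.9 ± 12.96 CPM and n31 at 26.0 ± 22.5 CPM. The subcluster with the most Piezo2, n31, thus had the lowest mean of Kcnk10, though not beyond the spread from n7. The Piezo2-rich n26 and n21 were among the highest for Kcnk10. Pearson's r between Kcnk10 and Piezo2 over the 27 subclusters was -0.0097.

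Kcnk4 had no leading type. It stood at 26.4 ± 2.72 CPM over all neurons and between 6.55 CPM in n31 and 46.3 ± 32.3 CPM in n20, a 7.07-fold range, and none of 26 steps between neighbours exceeded the spread. No subcluster reached more than 2 times the median of 24.9 CPM.

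Among the TMEM63 genes, Tmem63c was found in all 27 neuron subclusters, with a UMI in 58.5% of neurons without thinning. It stood at 326 ± 17.9 CPM over all neurons, and the subclusters ran from 146 ± 81.7 CPM in n32 to 418 ± 50.9 CPM in n11, a 2.85-fold range. The Piezo1-rich n11 and n6 were among the highest, as was n3 (Hunk, Lpar3, Pde1a) at 412 ± 23.4 CPM. The Piezo2-rich n21 stood at 166 ± 30.9 CPM. Pearson's r between Tmem63c and Piezo2 over the 27 subclusters was -0.67, the most negative of the 28 pairs of the 8 genes.

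Tmem63b stood at 135 ± 8.43 CPM over all neurons and was highest in the Spp1 and Nefh subcluster n30, at 314 ± 128 CPM over 11 pools, from 115 to 537 CPM. Its other subclusters ran from 71.5 ± 41.3 CPM in n20 to 215 ± 67.9 CPM in n22, and no step exceeded the spread. Tmem63a was barely detected in neurons, with 86 UMIs in all and 0.874 ± 0.349 CPM. Its highest subcluster mean was 3.40 ± 6.89 CPM, and in n20, n30 and n31 no Tmem63a UMI was counted.

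The difference between jugular-like and nodose-like neurons was tested over the 12 pools with each pool as a block. Of the 7 genes that passed the filter on low counts, 3 were higher and 3 lower in jugular-like neurons at an adjusted p under 0.05 (edgeR quasi-likelihood test, Benjamini-Hochberg), with Piezo1 among the lower ones. Among all 11186 genes tested 20.6% were higher and 20% lower, 40.6% in all. DESeq2 called the same 6 genes, with 37.6% of all genes. Piezo1 passed the filter only through nodose-like neurons, and nothing is read from these counts.

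Piezo2 stood at 617 ± 80.0 CPM in jugular-like neurons, with a lowest pool of 482, a median of 605 and a highest of 735 CPM. In nodose-like neurons it stood at 73.8 ± 12.4 CPM, with 60.9, 71.4 and 97.7 CPM. The pools did not overlap, and the difference was 3.04 ± 0.07 (SE) on the log2 scale (adjusted p = 1.25e-31). Kcnk2 was higher too, at 71.9 ± 25.7 against 20.6 ± 3.41 CPM, a log2 difference of 1.84 ± 0.12 (adjusted p = 4.59e-16). Tmem63b was higher by 0.34 ± 0.06 on the log2 scale (adjusted p = 2.27e-05).

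Piezo1 was lower in jugular-like neurons, at 5.28 ± 5.603 against 26.5 ± 5.67 CPM, a log2 difference of -2.59 ± 0.22. It rests on 36 UMIs in jugular-like neurons, where 3 pools had none and Piezo1 alone would not have passed the filter on low counts. The gene entered through nodose-like neurons, and the difference is given as a description without a p-value. Kcnk10 (-0.55 ± 0.07) and Tmem63c (-0.47 ± 0.06) were lower as well. For Kcnk4 the difference of 0.22 ± 0.11 missed the threshold (adjusted p = 0.103), and without FL2 it passed (0.28, adjusted p = 0.0422). Jugular-like neurons numbered 29 to 475 per pool.

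Among neurons, satellite glia, myelinating Schwann cells and endothelial cells, the mean CPM of Piezo1 was highest in endothelial cells and that of Tmem63a in Schwann cells, while the other genes had theirs in neurons. The unnamed cells outside neurons stood at 46.4 ± 19.5 CPM for Piezo1, near endothelial cells, and at 19.2 ± 10.9 CPM for Tmem63a, above all 4 classes. The larger endothelial cluster, of 708 nuclei, had 7 endothelial markers but also 6 mural cell markers at least 2-fold above the other nuclei. An unnamed cluster led by Acta2 and Myh11 had the same numbers of both, so that endothelial and mural cells were not cleanly separated. Satellite glia wrap the cell bodies of sensory neurons, and myelinating Schwann cells wrap their axons. RNA of neurons was present in all of these classes: the 11 neuron markers stood at a median of 72.7% of their neuron level in satellite glia (39.4% to 157%), 57.2% in endothelial cells (39.2% to 107%) and 33.3% in Schwann cells (19.4% to 76.0%). Its part in the levels below was not tested.

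Piezo1 stood at 47.8 ± 13.2 CPM in endothelial cells, with a lowest pool of 19.6, a median of 48.3 and a highest of 68.5 CPM. Neurons stood lower, by -0.995 ± 0.17 on the log2 scale (edgeR quasi-likelihood test with pool as a block, adjusted p = 2.41e-07), although 1 endothelial pool fell within the range of the neuron pools. Of all genes 23.3% were lower in neurons than in endothelial cells. Against satellite glia, at 11.99 ± 3.48 CPM, Piezo1 was higher in neurons by 0.81 ± 0.12. Against Schwann cells, at 25.3 ± 14.3 CPM, the difference of -0.19 ± 0.18 was not called (adjusted p = 0.358).

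Tmem63a stood at 11.8 ± 3.50 CPM in satellite glia, with a lowest pool of 5.51, a median of 13.03 and a highest of 17.3 CPM, so that no glial pool reached down to the neuron pools, of which the highest stood at 1.34 CPM. The log2 difference of neurons over satellite glia was -3.51 ± 0.20, and 37.7% of all genes were called lower in neurons. Tmem63a passed the filter on low counts there only through the glia, so that its difference is given as a description and nothing is read from its call. Schwann cells stood at 14.04 ± 8.82 CPM and endothelial cells at 9.45 ± 7.86 CPM, and against both Tmem63a did not pass the filter and was not tested.

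Piezo2 was lower outside neurons than in them but far from absent, at 172 ± 30.2 CPM in satellite glia, 162 ± 41.4 CPM in Schwann cells and 177 ± 67.1 CPM in endothelial cells. Neurons stood higher by 0.98 ± 0.06, 1.07 ± 0.08 and 1.06 ± 0.10 on the log2 scale. All 3 classes lay above the 14 neuron subclusters with little Piezo2, which had at most 81.7 CPM. As a share of nuclei with a UMI after thinning to 1000 UMIs, neurons had 17.4% (exact binomial 95% interval 16.9% to 17.9%), Schwann cells 15.9% (13.9% to 18.0%) and satellite glia 12.98% (11.9% to 14.1%). Without thinning the shares were 27.3%, 30.7% and 30.7%, at median depths of 2916, 1969 and 2529 UMIs, and 985, 103 and 195 shallower nuclei were left out of the thinned ones. Intervals cover counting error only. The difference of 1.51 percentage points between neurons and Schwann cells was smaller than its SD over pools of 4.47. Thinned to 2000 UMIs, the shares were 23.1% in neurons, 23.1% in Schwann cells and 23.4% in satellite glia. Nuclei below 2000 UMIs were left out there, a depth that the median Schwann cell nucleus did not reach. As a share of nuclei with a UMI, Piezo2 in neurons could therefore not be told from that in Schwann cells. The levels in the highest neuron subclusters stood far above those in the other cells. How much of the Piezo2 RNA in the other cells came from neurons was not tested.

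The potassium channels and the other TMEM63 genes stood higher in neurons. Kcnk10 did so by 1.88 ± 0.07 over satellite glia, 2.69 ± 0.11 over Schwann cells and 1.80 ± 0.11 over endothelial cells on the log2 scale. For Tmem63c the differences were 1.43 ± 0.06, 2.57 ± 0.10 and 1.48 ± 0.09, and for Kcnk4 1.31 ± 0.11, 2.17 ± 0.23 and 1.84 ± 0.26. Tmem63b differed less, by 0.46 ± 0.05, 1.01 ± 0.10 and 1.00 ± 0.10. Kcnk2 was higher by 0.43 ± 0.10 over satellite glia and 0.73 ± 0.16 over Schwann cells, and over endothelial cells the 0.39 ± 0.18 missed the threshold (adjusted p = 0.0570). Kcnk2, Kcnk4 and Kcnk10 in Schwann cells, and Kcnk2 and Kcnk4 in endothelial cells, would not have passed the filter on low counts in those classes alone. They entered through the neurons, and their differences there are a description. Kcnk4 had 24 UMIs in Schwann and 22 in endothelial cells. A call for Kcnk2 over endothelial cells came when any 1 of ML2, ML3, MR3, FL1 or FL3 was left out (adjusted p from 0.0167 to 0.0463). Nothing is read from these calls or from the near miss, since Kcnk2 entered through the neurons.

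In counts, 7 of 8 genes were higher in neurons than in satellite glia (35.3% of all genes were), 6 of the 7 tested than in Schwann cells (36.1%) and 5 of the 7 tested than in endothelial cells (29.3%). Of the 6 over Schwann cells, Kcnk2, Kcnk4 and Kcnk10 entered only through the neurons, as did Kcnk4 of the 5 over endothelial cells, and nothing is read from the counts. In both directions together, edgeR called 8 of 8 genes against satellite glia with 73% of all genes, 6 of 7 against Schwann cells with 67% and 6 of 7 against endothelial cells with 52.6%. DESeq2 called the same numbers of members, with 69.9%, 63.9% and 48% of all genes. Fewer cells with a gene and less RNA per cell cannot be told apart in such sums.

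**Figure D3:**
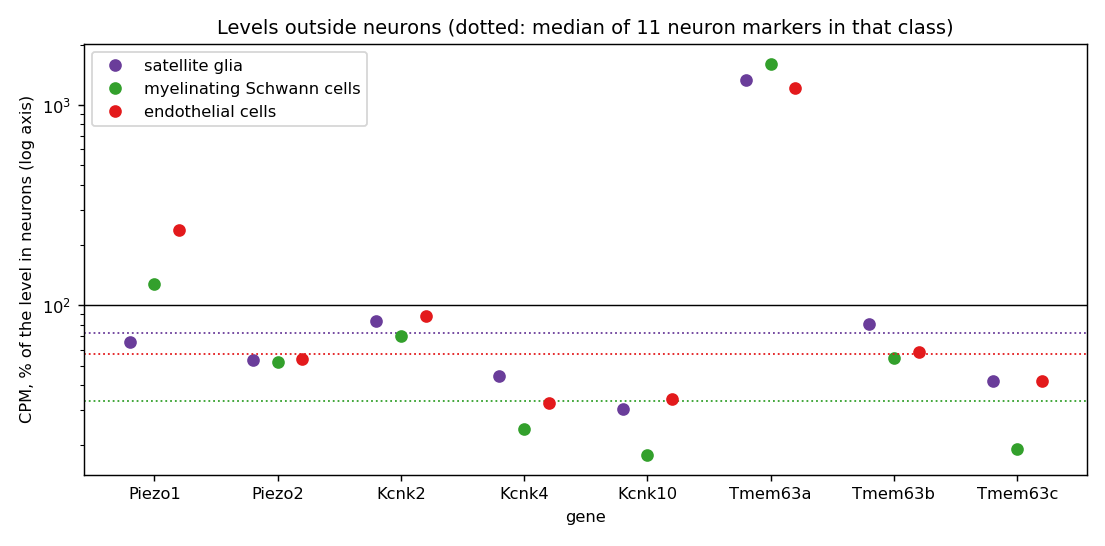
Level of each gene (horizontal axis) in satellite glia, myelinating Schwann cells and endothelial cells as a percentage of its level in neurons (vertical log axis, line at 100%), with the median of 11 neuron markers of each class dotted. Points stand for CPM over all pools together; Tmem63a lies above 1000% in all 3 classes and Piezo1 above 100% in Schwann and endothelial cells.

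Between pools, Piezo2 varied most among the genes detected well. Its level in neurons was 189 CPM in the lowest pool (ML3), 321 CPM at the median and 472 CPM in the highest (ML1), a coefficient of variation of 26.9%. The share of jugular-like neurons was lowest in ML3 too, at 2.05%, and highest in ML1, at 18.6%. The same held for the share of unnamed neurons, at 25.6% in ML3 and 33.1% in ML1. Jugular-like neurons held 4769 and nodose-like neurons 4501 of the 30007 Piezo2 UMIs of neurons. The rest, which was the larger part, lay in unnamed neurons. When each of the 20 subclusters with at least 10 nuclei in every pool was given the same weight, Piezo2 ran from 381 to 464 CPM and the coefficient fell to 5.52%. That weighting was chosen after the data had been seen. It also left out the other subclusters, among them n31, the highest for Piezo2, and the part of this in the fall was not tested. Kcnk2 behaved likewise, from 17.5% to 9.10%. The coefficient fell from 8.33% to 6.91% for Kcnk10 and from 5.49% to 4.32% for Tmem63c. For Piezo1 (18.9% and 19.03%), Kcnk4 (10.3% and 12.2%), Tmem63b (6.25% and 7.00%) and the sparse Tmem63a (40.00% and 59.3%) it did not fall. These differences between coefficients were not tested.

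**Figure D4:**
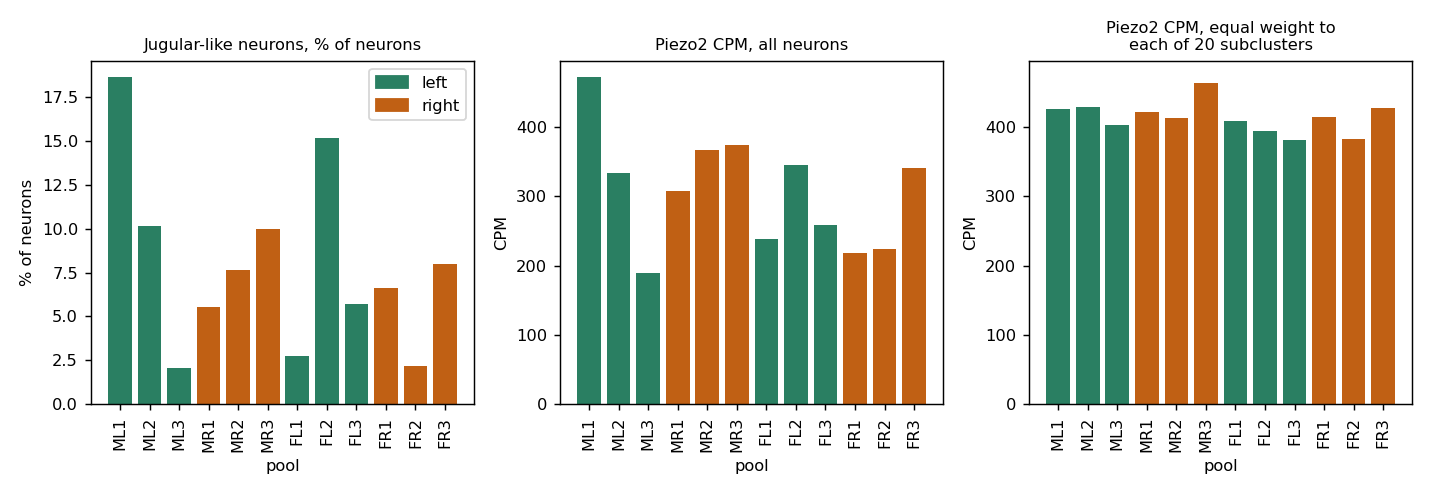
Bars for each of the 12 pools (left pools green, right pools orange) show the jugular-like share of neurons in percent, Piezo2 CPM over all neurons, and Piezo2 CPM with equal weight for 20 subclusters. The middle panel runs from 189 to 472 CPM and the right one from 381 to 464 CPM.

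By side, no gene was called over all neurons: 0 of 7 tested passed an adjusted p under 0.05 (edgeR quasi-likelihood test, side and labelled sex in 1 model), where 0.0287% of all genes did. Of the 7, 2 had an unadjusted p under 0.05, as did 930 of 13939 genes, and DESeq2 called none of the 7 either, with 0.452% of all genes called. Kcnk4 was the nearest. It stood at 28.4 ± 1.06 CPM in left pools (26.9, 28.5 and 29.6 as lowest, median and highest) and 24.4 ± 2.36 CPM in right pools (highest 26.4). The sides did not overlap, as held for 0.481% of all genes, and the log2 difference of right over left was -0.22 ± 0.07 (unadjusted p = 0.00561, adjusted p = 0.445). Piezo2 stood at 306 ± 100.2 CPM on the left and 305 ± 69.6 CPM on the right, a log2 difference of -0.02 ± 0.17 whose sign turned in several alternatives.

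Within nodose-like neurons, where 1.04% of all genes were called by side, again 0 of 7 passed. An unadjusted p under 0.05 was reached by 3 of the 7 and by 1361 of 13064 genes. Piezo2 and Kcnk10 came near the threshold in opposite directions. Piezo2 stood at 66.1 ± 4.87 CPM on the left (60.9, 65.5 and 72.0 as lowest, median and highest) and 81.5 ± 13.2 CPM on the right (61.1 to 97.7). The right pools FR1 and FR2 lay within the left range and the other 4 above it. The log2 difference was 0.29 ± 0.07 (adjusted p = 0.0692).

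Kcnk10 stood at 232 ± 12.97 CPM on the left (218, 229 and 250 as lowest, median and highest) and 205 ± 14.4 CPM on the right (176 to 214). All right pools lay below all left pools, as held for 0.957% of all genes in 1 direction or the other, and the difference was -0.19 ± 0.05 (adjusted p = 0.0692). Kcnk2 stood at 18.3 ± 1.75 and 22.8 ± 3.25 CPM, with a difference of 0.33 ± 0.10 (adjusted p = 0.139).

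Whether either gene was called depended on the tool and on single pools. DESeq2 called Piezo2 (adjusted p = 0.0284) and Kcnk10 (adjusted p = 0.0179), with 1.41% of all genes. Without FR1 edgeR called Piezo2 (0.34, adjusted p = 0.0106), and without ML2 it called Kcnk10 (-0.20, adjusted p = 0.0476). With equal weight for 11 nodose-like subclusters, Piezo2 stood at 138 ± 10.7 and 149 ± 14.2 CPM with overlapping pools, and Kcnk10 at 222 ± 5.98 (213 to 230) and 202 ± 9.19 CPM (188 to 211), without overlap. Equal weights do not keep the observed mixture of subclusters, and the part of that mixture in the side differences was not tested. Without ML1 and FL1 the differences were 0.30 for Piezo2 (adjusted p = 0.265) and -0.17 for Kcnk10 (adjusted p = 0.402).

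**Figure D5:**
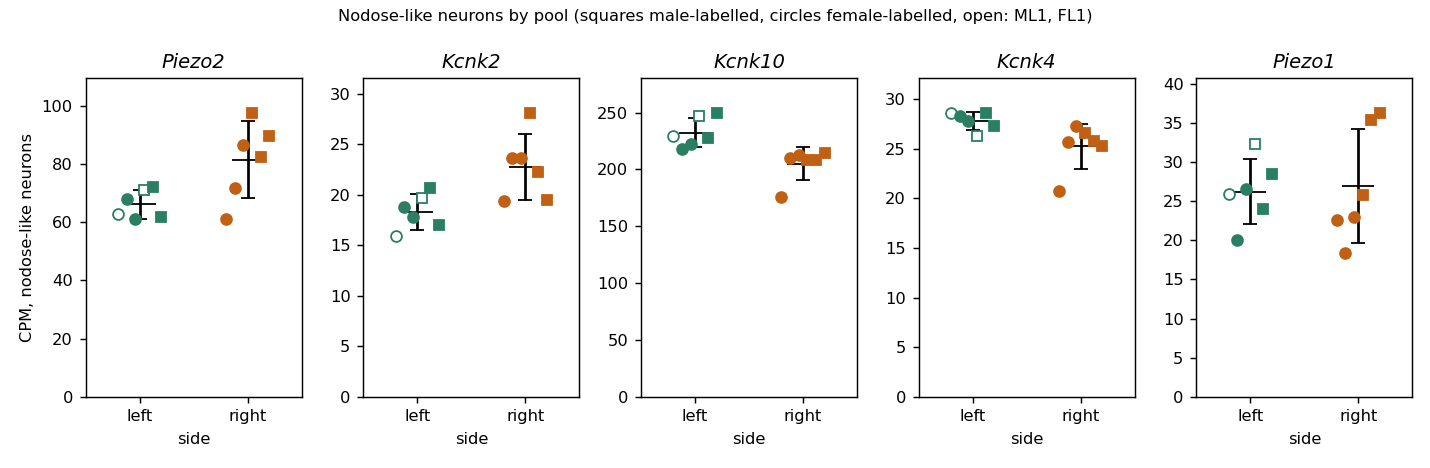
CPM of 5 genes in nodose-like neurons of each pool, left and right, with mean and SD as bars, squares for male-labelled and circles for female-labelled pools, and open symbols for ML1 and FL1. For Kcnk10 the 6 right pools lie below the 6 left pools, for Piezo2 4 of 6 right pools lie above all left pools, and for Piezo1 the sides overlap.

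By labelled sex, 0 of 7 genes were called over all neurons, where 0% of all genes were, although 3 of the 7 and 2714 of 13939 genes had an unadjusted p under 0.05. DESeq2 called 3.07% of all genes and none of the 7. Piezo1 stood at 21.6 ± 3.79 CPM in male-labelled and 17.9 ± 2.87 CPM in female-labelled pools, a log2 difference of female over male of -0.28 ± 0.13 (adjusted p = 0.248), and -0.38 without ML1 and FL1 (adjusted p = 0.185). Piezo2 stood at 341 ± 92.8 and 271 ± 57.8 CPM, a difference of -0.36 ± 0.17 (adjusted p = 0.254) that was -0.19 without both pools (adjusted p = 0.600). Kcnk10 differed by -0.14 ± 0.05 (adjusted p = 0.164), and by -0.15 without them (adjusted p = 0.257).

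In nodose-like neurons, with 0.62% of all genes called by labelled sex, 0 of 7 passed and Piezo1 came nearest. An unadjusted p under 0.05 was reached by 3 of the 7 and by 2289 of 13064 genes. Piezo1 stood at 30.4 ± 5.09 CPM in male-labelled pools (24.0, 30.4 and 36.3 as lowest, median and highest) and 22.7 ± 3.18 CPM in female-labelled ones (18.4 to 26.5). The ranges overlapped between 24.0 and 26.5 CPM, and those of the other 7 genes overlapped as well, where 1.02% of all genes had no overlap. The difference was -0.43 ± 0.12 (adjusted p = 0.0728), and -0.46 without ML1 and FL1 (adjusted p = 0.0913). It was called by DESeq2 (adjusted p = 0.0214, with 2.72% of all genes) and by edgeR without MR1 (-0.49, adjusted p = 0.0197).

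The product of side and labelled sex was not called for any of 7 genes in neurons, nor for any gene (569 of 13939 had an unadjusted p under 0.05). In jugular-like neurons (6 genes tested), satellite glia (8), Schwann cells (3) and endothelial cells (5), edgeR and DESeq2 called none of the 8 by side or labelled sex. Of all genes edgeR called 0% in each, and DESeq2 0% except by labelled sex in jugular-like neurons (0.0393%). An unadjusted p under 0.05 was reached by 1 of 8 genes in satellite glia by side, where 466 of 10117 genes reached it. By labelled sex it was reached by 2 of 8 in satellite glia, against 719 of 10117 genes, and by 1 of 6 in jugular-like neurons, against 700 of 7629 genes.

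Related genes were counted from 4 lists. Of 11 other potassium channels with paired pore domains, 6 of 6 tested were higher in neurons than in satellite glia (35.3% of all genes were), of which 4 passed the filter on low counts in satellite glia alone. The others entered through the neurons, and nothing is read from this count. In jugular-like over nodose-like neurons 2 were called higher and 4 lower, against 20.6% and 20% of all genes. Only Kcnk18 of the 11 passed the filter in jugular-like neurons alone, so that nothing is read from these counts. Kcnk3 (TASK-1), Kcnk9 (TASK-3) and Kcnk13 (THIK-1) had log2 differences of -1.50, -2.25 and -3.08 there, given as a description. Their highest subclusters were n4 for Kcnk3 (127 CPM), n14 for Kcnk9 (127 CPM) and n2 for Kcnk13 (68.9 CPM).

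Of 10 genes known to bind or tune PIEZO channels, 9 were found and 8 tested, with 4 higher and 4 lower in neurons than in satellite glia, against 35.3% and 37.7% of all genes. Tmem150c, which slows PIEZO inactivation, was higher by 0.94, and the cadherin Cdh2 and its partner Ctnnb1, which tether PIEZO1 to the cytoskeleton, were lower by -0.70 and -0.53. Atp2a2, the calcium pump SERCA2, counts among the higher ones by 0.13 after TMM scaling, but its CPM was 213 in neurons and 219 in satellite glia, so that its direction depends on the scaling. In jugular-like over nodose-like neurons 4 were higher and 2 lower, against 20.6% and 20% of all genes. Of the 8 tested there, 6 passed the filter on low counts in jugular-like neurons alone, and nothing is read from these counts.

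Of 16 further proposed mechanosensors 14 were found and 11 tested, with 7 higher and 0 lower in neurons than in satellite glia, against 35.3% and 37.7% of all genes. In satellite glia alone 10 passed the filter on low counts, and nothing is read from these counts. Of 10 tested 3 were higher and 4 lower in jugular-like neurons, against 20.6% and 20% of all genes. Asic2, an acid-sensing channel of baroreceptors, was highest at 8132 CPM in n0 (Fhip1a, Kirrel3, Col27a1). In nodose-like neurons Asic2 was higher on the right by 0.33 ± 0.05 on the log2 scale (edgeR quasi-likelihood test, adjusted p = 0.00117), where 1.04% of all genes were called by side. Of 9 genes of the hair cell transduction complex 8 were found. Pcdh15 was highest at 614 CPM in n13, a Piezo2-rich subcluster with it among its leading genes, and Tmc3 at 1002 CPM in n0. No list held a gene called by labelled sex in neurons or nodose-like neurons.

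Genes whose levels ran most like a member's over the 27 subclusters were found among 9250 genes that reached 20 CPM in at least 1 of them, by Pearson's r of log2(CPM + 5). For Piezo2 these were Usp31 (0.83), Ypel2 (0.82), Fras1 (0.81) and Cds1 (0.81). For Piezo1 they were Gpr65 (0.79), a proton-sensing receptor, Fam3d (0.77), Ntsr1 (0.75) and Gdpd4 (0.74). For Kcnk2 they were Mgat5b (0.84), Diaph3 (0.83), Gpr26 (0.83) and Nxph1 (0.82). For Tmem63b they were led by Sptan1 (0.92), a spectrin of the membrane skeleton, and Abca2 (0.90), and for Tmem63c by Plcb3 (0.87) and Prkcd (0.86). Kcnk4 came nearest to Vps13c (0.77), and Kcnk10 to Psmb7 and Zc3h18 (both 0.64) after 2 genes without a symbol. Tmem63a did not reach 20 CPM in any subcluster and was not compared. These correlations are maxima over many genes in clusters built from the same nuclei, and they carry no test.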

How the data were processed

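UMI counts of 30560 genes in 36741 nuclei, deposited by the authors as raw transcript counts per nucleus and gene, were used with their table of pool names. Per the submitters' processing notes, R 4.3.2, Seurat 4.1.3 and build mRatBN7.2 were used. An aligner or annotation release is not given in the sources used. The 8 genes and the lists of related genes were chosen with earlier results of these data known. Named are the 8 genes, up to 4 genes per list with the highest CPM in neurons or called by side or sex, and up to 4 genes most correlated with a member. Pcdh15 is named also as a leading gene of its subcluster. One gene that the rule names is not reported here.

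A nucleus was kept when it had 300 genes or more and no more than 5% of its UMIs came from mitochondrial genes. The doublet caller marked 2 nuclei (0.00544%) and did not work, so that doublets remain. An alternative removed the highest 5% of its scores (1790 nuclei). With Python 3.11.15, scanpy 1.11.5 and leidenalg 0.10.2, 3000 variable genes (2000 within neurons), 30 principal components, 20 neighbours and Leiden resolution 1 gave the clusters, leaving 67 genes out, the members among them. Classes needed at least 3 markers of their list. A neuron marker had to be 1.25-fold higher, a fold lowered after the clusters were seen.

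Counts were summed per pool and class and tested with edgeR 4.0.16 in R 4.3.3 (quasi-likelihood, TMM, filterByExpr, Benjamini-Hochberg over all genes tested), with side and labelled sex in 1 model, or with pool as a block between classes. DESeq2 1.42.0, other filters and resolutions, a replicate block and each pool left out were alternatives. Skeletal muscle nuclei did not reach 20 nuclei in every pool and were not tested. Scripts were tested on simulated data.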

Additional observations from a re-analysis of the deposited data

Results flagged for a closer look

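In groups of 6 pools, a pool was picked out when its gap to the next exceeded Dixon's 95% critical value. Of 96 groups of pools examined, 8 held such a pool, where chance alone picks out about 1 in 20. Each pool counts in a group by side and in a group by sex, and nodose-like and jugular-like neurons are part of the neurons. The 8 are therefore not independent, and nothing is read from their number. The pool FR1 accounted for 5 of the 8. Kcnk10, the potassium channel TREK-2, stood at 154 CPM in neurons of FR1 against 190 CPM in the next of the female-labelled pools. In nodose-like neurons it stood at 176 CPM in FR1 against 208 CPM in the next of the right pools and 210 CPM in the next of the female-labelled pools. Kcnk4, the potassium channel TRAAK, stood at 20.8 CPM in nodose-like neurons of FR1 against 25.3 CPM among the right and 25.7 CPM among the female-labelled pools. FR1 is a right pool, so its low values bear on the side differences given for both genes. Without it, the log2 difference of right over left in nodose-like neurons was -0.16 for Kcnk10 and -0.10 for Kcnk4.

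The other 3 concern jugular-like neurons, which were few in some pools. Piezo1 stood at 20.5 CPM in FR2 against 5.34 CPM in the next of the female-labelled pools. Piezo2 stood at 735 CPM in FL1 against 611 CPM in the next of the left pools, and Kcnk2 stood at 19.4 CPM in FL1 against 78.4 CPM in the next of the female-labelled pools. FR2 held 49 and FL1 57 jugular-like neurons.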

How the results depend on the processing

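Of 684 values recomputed with 1 pool left out, 659 kept their direction and their side of the threshold, 9 passed it and 16 changed sign. Of 214 values under other settings, 200 were unchanged in that sense and 5 passed the threshold. In nodose-like neurons DESeq2 called 2 of 7 genes by side and 1 by labelled sex in place of 0, and with 1 pool left out edgeR called 0 to 1 for each. Without ML1 and FL1, Piezo2 by side in neurons came to 0.0876, Kcnk2 by labelled sex in neurons to 0.075 and Piezo1 by side in nodose-like neurons to 0.0631, all with the sign turned. With single pools left out, the log2 difference ran from -0.15 to 0.11 for Piezo2 by side, and by labelled sex from -0.14 to 0.00528 for Kcnk2, from -0.0624 to 0.00706 for Kcnk4 and from -0.0422 to 0.0089 for Tmem63c in neurons. In nodose-like neurons it ran from -0.0827 to 0.0396 for Piezo1 by side and from -0.0551 to 0.00965 for Kcnk4 by labelled sex. None of these was called, and the cause was not tested. Deviations of same-numbered left and right pools correlated between -0.086 and 0.167 over 6 pairs, 2 of which hold ML1 or FL1, and the numbers were not taken as pairs; which pools share animals is not known. With the replicate block, 0 of 7 genes were called by side, 3 of all genes in place of 4, and Piezo2 came to 0.0115. Over all neurons the genes called by side numbered 4 by edgeR, 63 by DESeq2, 44 without the filter on low counts and 9 without the highest doublet scores. By labelled sex these were 0, 428, 512 and 4, with 29 without ML1 and FL1, and in nodose-like neurons 81 by edgeR, 355 by DESeq2 and 124 without both pools. By side in nodose-like neurons, 136 became 40 without both pools. Kcnk2 in neurons over endothelial cells passed the threshold without the filter on low counts (0.54, adjusted p = 0.00893) and without the highest doublet scores (0.50, adjusted p = 0.0165). Its counts in endothelial cells alone would not have passed that filter, and nothing is read from either call. At clustering resolution 2 the highest mean of Piezo1 was 88.3 CPM in place of 62.02 CPM. Shares of nuclei with a UMI in neurons minus those in Schwann cells also moved when nuclei were thinned to 2000 in place of 1000 UMIs. They grew to 4.01 percentage points for Kcnk4, 21.4 for Kcnk10, 8.92 for Tmem63b and 35.5 for Tmem63c, and came to -3.60 for Tmem63a. More UMIs per nucleus were kept, but nuclei below 2000 UMIs were left out, and the median of Schwann cells was 1969 UMIs. The parts of both were not tested. With equal weight for each of the 20 subclusters found in every pool, the mean moved to 15.3 CPM for Piezo1, 414 for Piezo2, 53.3 for Kcnk2, 23.4 for Kcnk4 and 287 for Tmem63c. Depth limits Tmem63a in neurons (86 UMIs) and Piezo1 in jugular-like neurons (36 UMIs).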
